A study of Mus musculus with 6 samples.

Results

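The genes described here encode respiratory complexes II to V of mitochondria: the 4 subunits of succinate dehydrogenase (complex II), the subunits of the cytochrome bc1 complex (complex III) and of cytochrome c oxidase (complex IV), cytochrome c, the ATP synthase (complex V) and the complex IV assembly factor Surf1. Members were taken by gene symbol from the platform annotation (Sdha to Sdhd, Cyc1, Cycs, Surf1 and every symbol that begins with Uqcr, Cox4 to Cox8 or Atp5, with Cox7a1 and Cox8b left out), and each gene was represented by its brightest probe set. This gave 46 of the 12393 genes on the array, and 44 of the 46 were bright enough to be tested.

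White adipose tissue of 3 YY1aKO and 3 control samples was profiled, with 1 Affymetrix array for each sample. YY1aKO mice carried YY1flox/flox alleles and a Cre recombinase driven by Adiponectin, a gene active in adipocytes, and control mice carried YY1flox/flox alleles with no Cre named, so the loss of YY1 and the presence of Cre cannot be told apart. All mice were 8 weeks old, had a mixed C57BL6 and 129 background and had been kept at 4 °C for 4 days. The labels disagree on the depot (EWAT and visceral, or subcutaneous) and do not say whether each sample came from a separate mouse, so p-values measure the spread between samples.

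The respiratory chain passes electrons from succinate (complex II) or NADH (complex I) through ubiquinone, complex III and cytochrome c to oxygen at complex IV. The protons pumped on the way drive ATP synthesis by complex V, except where an uncoupling protein lets them return as heat, as in brown and beige fat in the cold. All 4 subunits of complex II are encoded in the nucleus, whereas the catalytic subunits of complex IV, cytochrome b of complex III and 2 membrane subunits of complex V are encoded in mitochondrial DNA and are not among the genes described here. The transcription factor YY1 binds DNA through zinc fingers and has been tied to mitochondrial genes together with the coactivator PGC-1α, the product of Ppargc1a.

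Control 2 stood apart from the other arrays. Across the genes tested, which are not independent replicates, Pearson's r was 0.988 to 0.990 among YY1aKO arrays and 0.977 between controls 1 and 3, but 0.812 to 0.890 between control 2 and any other array. The 6 measured epididymis markers summed to 183 to 195.4 in YY1aKO and to 169.9, 97387 and 856 in controls 1 to 3, and the 6 measured white adipocyte markers to 73908 to 79233 in YY1aKO and 93890, 61085 and 90677 in controls 1 to 3. Control 2 lay below both other controls for 33 of the 44 tested members (48.6% of all genes tested) and above both for 9 (40.2% of all genes tested). Relative to the mean of controls 1 and 3, the median of control 2 was -0.23 log2 units over the members and -0.05 over all genes tested. The counts, and the differences of the members described most closely, are therefore also given without control 2, with 3 YY1aKO and 2 control arrays. The targeted gene Yy1 read 373, 323 and 315 in YY1aKO, against 1785, 1846 and 1596 in controls. Ppargc1a read 22.3, 15.3 and 35.0 in YY1aKO, against 163, 134.5 and 242.5 in controls. The YY1aKO readings of Ppargc1a lie far under the lowest mean tested (114) and were not shown to be above background, so no fold is given (adjusted p = 0.012 by limma with no filter, and 0.0044 without control 2).

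Genes of complexes II to V passed the test in both directions, and those that did differed by less than 2-fold with their brightest probe set. With all arrays, Uqcrq, Cox5a and Cox6a2 were higher in YY1aKO, and Atp5a1, Cox8a and Cox7c were lower, at an adjusted p under 0.05 over all genes (limma on log2 intensity). That is 3 higher and 3 lower of 44, or 13.6% of the members, where 20.7% of all genes tested passed (12.9% higher and 7.8% lower). The members' median log2 difference was 0.06, and that of all genes tested was 0.055. The YY1aKO arrays lay wholly outside the control range for 25 members, 16 above and 9 below, where the share over all genes tested was 47.5% (27.9% above and 19.6% below). Of the 44 tested members, 38 differed by under 0.5 log2 units. Cox6a2 and Cox7c each reached the intensity filter through 1 group, since the mean of the other group lay below the lowest mean tested (log2 of 6.83), so their calls carry less weight than the other 4.

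Without control 2 the same 6 genes passed in the same direction and 13 others joined them, which gave 7 higher and 12 lower. This is 43.2% of the members, where 45.1% of all genes passed in that fit (25.5% higher and 19.6% lower). YY1aKO arrays lay outside the control range for 34 members, 17 above and 17 below, where the share over all genes was 69.2% (37.8% above and 31.4% below). The median was -0.02, against 0.03 over all genes, and 35 of the 44 differences were lower than with all arrays. Cyc1, Atp5d and Atp5k turned from a small positive to a small negative difference and passed in neither fit. Both shares of members called lay near or below those of the array as a whole, so the count of calls does not set these genes apart. Of the 6 calls, only that of Uqcrq also held without control 1 or control 3. None of the 6 held when a YY1aKO array was left out. Calls were lost across the array as a whole in these fits. Of all genes tested, 18.0% passed without control 1 and 5.3% without control 3. Without YY1aKO 1, 2 and 3 the shares were 3.4%, 0.444% and 0.323%.

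**Figure D1:**
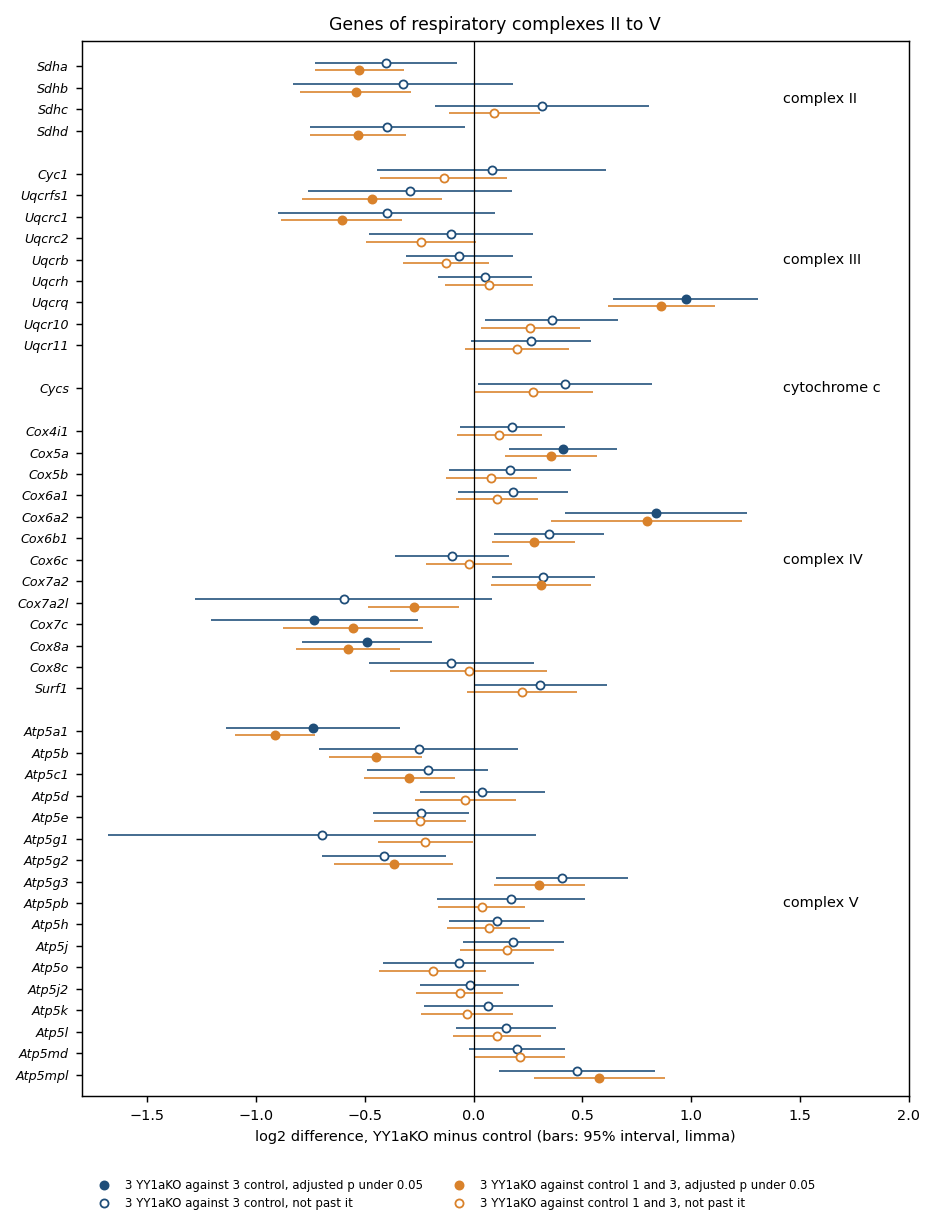
Log2 difference, YY1aKO minus control, of the 44 tested genes of complexes II to V with 95% intervals from limma, with all 6 arrays (blue) and without control 2 (orange). Filled points passed an adjusted p of 0.05. Sdha, Sdhb and Sdhd, the core subunits of complex III and the F1 genes lie mostly left of 0, and Uqcrq (0.97) and Cox6a2 (0.84) lie farthest to the right.

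Complex II oxidises succinate in the tricarboxylic acid cycle and passes the electrons to ubiquinone. No complex II gene passed with all arrays, where 20.7% of all genes tested did. Without control 2, 3 of 4 passed as lower, where 19.6% of all genes did. Sdha, the flavoprotein that binds succinate, read 3324, 3384 and 3253 in YY1aKO, against 5026, 3702 and 4532 in controls. With this probe set all YY1aKO values of Sdha lay below the lowest control, which was control 2. Its log2 difference was -0.40 ± 0.13 (SE, n = 3 per group, adjusted p = 0.084), and without control 2 it fell by 0.52 (1.44-fold lower, adjusted p = 0.0054). The other bright probe set of Sdha read 2676, 2875 and 2748 in YY1aKO, against 3907, 2319 and 3358 in controls. There control 2 lay below all YY1aKO arrays, and the difference was -0.17 with all arrays and -0.39 without control 2 (adjusted p over all probe sets = 0.61 and 0.035).

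Sdhd, a membrane anchor of the complex, read 1739, 1864 and 1843 in YY1aKO, against 2789, 1977 and 2467 in controls, and again the groups did not overlap. Its difference was -0.40 ± 0.15 with all arrays (adjusted p = 0.11), and it fell by 0.53 without control 2 (adjusted p = 0.0066). A much dimmer probe set of Sdhd overlapped between groups and did not pass (-0.10, and -0.27 without control 2). Sdhb, the iron-sulfur subunit, read 3317, 3502 and 3867 in YY1aKO, against 5496, 3296 and 4868 in controls, so control 2 lay under every YY1aKO array. Its difference was -0.32 ± 0.21 (adjusted p = 0.30), and it fell by 0.54 without control 2 (adjusted p = 0.0097). Sdhc, the other membrane anchor, did not share this pattern of values. It read 1420, 1408 and 1510 in YY1aKO, against 1419, 857 and 1290 in controls, with a difference of 0.31 ± 0.20 (adjusted p = 0.30), or 0.10 without control 2 (adjusted p = 0.39, 95% interval -0.11 to 0.30). A dimmer probe set of Sdhc differed by 0.11 with all arrays and by -0.06 without control 2 (limma, adjusted p over all probe sets = 0.71 and 0.63). Without control 2 the sign of Sdhc therefore depended on the probe set.

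In complex III, 1 of 9 genes passed with all arrays, where 20.7% of all genes tested did. Without control 2 there were 1 higher and 2 lower, against 25.5% higher and 19.6% lower over all genes. The gene with the largest rise among the 44 tested members was Uqcrq, a small subunit also known as the ubiquinone-binding protein QP-C. It read 7002, 7234 and 8151 in YY1aKO, against 4281, 3246 and 3912 in controls. Every YY1aKO array lay above every control, and Uqcrq rose by 0.97 ± 0.14 on the log2 scale (1.97-fold, adjusted p = 0.011), or by 0.86 without control 2 (adjusted p = 0.0023). The adjusted p was 0.021 and 0.048 without controls 1 and 3, and 0.052, 0.063 and 0.064 without YY1aKO 1, 2 and 3. The brightest probe sets of Uqcrq, Cox7c and Atp5a1 are of the _s_at kind, which can match more than 1 transcript. The 3 other probe sets of Uqcrq read at most 77.8 on any array, and the mean of its 4 probe sets differed by 0.42 (adjusted p = 0.039).

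Uqcr10, another small subunit, read 4109, 4380 and 4801 in YY1aKO, against 3703, 3007 and 3674 in controls with its brightest probe set. These groups did not overlap, but the difference of 0.36 ± 0.12 did not pass (adjusted p = 0.093), nor did the 0.26 without control 2 (adjusted p = 0.063). Its other probe sets gave much larger differences. They read 865, 924 and 1326 in YY1aKO, against 431, 276 and 362 in controls for one (1.54 ± 0.23), and 1029, 1092 and 1584 in YY1aKO, against 636, 482 and 543 in controls for the other (1.14 ± 0.20). Both passed when every probe set was tested on its own (adjusted p = 0.017 and 0.023), and so did the mean of the 3 (adjusted p = 0.018). The probe sets of Uqcr10 therefore disagree on the size of its difference and not on its sign.

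None of the 4 catalytic and core subunits of complex III passed by limma with all arrays, where 20.7% of all genes tested did. At an unadjusted p under 0.05 there were 0 of the 4, against 2772 of the 7436 genes tested. The groups overlapped in each of the 4, where 47.5% of all genes tested had the YY1aKO arrays wholly outside the control range. In 3 of the 4, all YY1aKO arrays lay below controls 1 and 3, where 31.4% of all genes did. Without control 2, 2 of the 4 passed as lower, where 19.6% of all genes did. Uqcrc1, a core protein, read 1783, 2049 and 2102 in YY1aKO, against 3233, 1951 and 2787 in controls. Uqcrfs1, the Rieske iron-sulfur protein that moves electrons to cytochrome c1, read 2523, 2969 and 2969 in YY1aKO, against 4332, 2699 and 3490 in controls. In both genes control 2 lay within the YY1aKO range, and the differences of -0.40 ± 0.20 and -0.29 ± 0.19 did not pass (adjusted p = 0.21 and 0.32). Without control 2, Uqcrc1 fell by 0.61 (adjusted p = 0.0090) and Uqcrfs1 by 0.47 (adjusted p = 0.031). The other core protein Uqcrc2 differed by -0.24 without control 2 (adjusted p = 0.10). Cyc1, cytochrome c1 itself, read 3161, 3525 and 3791 in YY1aKO, against 4169, 2424 and 3513 in controls. Its groups overlapped, and its difference was 0.08 with all arrays and -0.14 without control 2 (adjusted p = 0.81 and 0.38). The small subunits Uqcrb (-0.06), Uqcrh (0.05) and Uqcr11 (0.26) did not pass in either fit. Uqcrb, the brightest of the complex, read 10959, 11202 and 11995 in YY1aKO, against 12613, 10927 and 12222 in controls, with overlap.

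Cycs encodes somatic cytochrome c, which carries electrons from complex III to complex IV. It read 7068, 7843 and 8712 in YY1aKO, against 6740, 4782 and 6237 in controls, and the groups did not overlap. Its difference of 0.42 ± 0.16 did not pass (adjusted p = 0.12), and neither did the 0.28 without control 2 (adjusted p = 0.089).

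**Figure D2:**
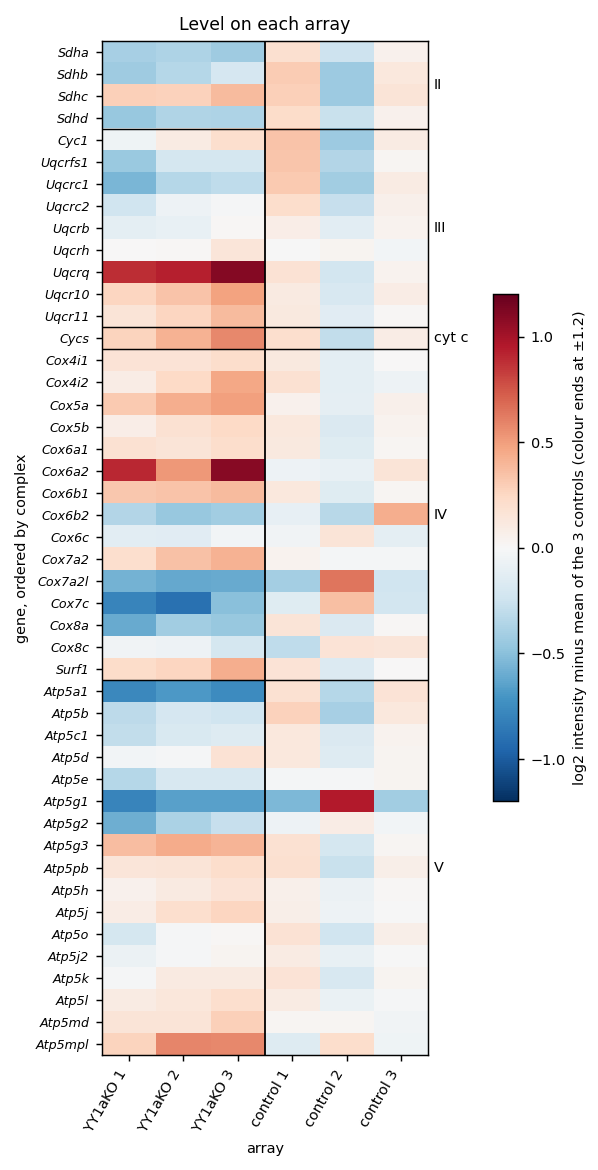
Log2 intensity of each of the 46 genes (rows, by complex) on each array (columns), minus the mean of the 3 controls. Uqcrq, Cox6a2 and Atp5a1 show 1 colour over all YY1aKO arrays, and control 2 differs in colour from controls 1 and 3 in many rows, most of all for Atp5g1 and Cox7a2l.

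Complex IV had 4 of its 13 tested genes past the threshold with all arrays, 2 in each direction, where 20.7% of all genes tested passed. Without control 2 it had 4 higher and 3 lower, against 25.5% higher and 19.6% lower over all genes. Cox5a, a subunit on the matrix side of the complex, read 7165, 7804 and 8102 in YY1aKO, against 5980, 5348 and 6023 in controls. The groups did not overlap, and Cox5a rose by 0.41 ± 0.10 (1.33-fold, adjusted p = 0.039), or by 0.36 without control 2 (adjusted p = 0.020). Its adjusted p was 0.054 with the mean of its 3 probe sets, 0.051 with no filter, and 0.065 to 0.15 without each array other than control 2.

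Cox8a, the ubiquitous form of the smallest subunits, read 4715, 5383 and 5251 in YY1aKO, against 8006, 6369 and 7238 in controls. All YY1aKO values lay below all controls, and Cox8a fell by 0.49 ± 0.12 (1.40-fold lower, adjusted p = 0.040), or by 0.58 without control 2 (adjusted p = 0.0065). A further bright probe set gave -0.45, while the mean of its 3 probe sets, which includes a dim one, gave -0.33 and did not pass (adjusted p = 0.097). Without each array other than control 2 the adjusted p was 0.079 to 0.14, and with the same median on every array it was 0.052.

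Cox7c, another small membrane subunit, read 99.2, 92.2 and 121 in YY1aKO, against 155.6, 220.5 and 148 in controls. The groups did not overlap, with control 2 the highest, and Cox7c fell by 0.73 ± 0.19 (adjusted p = 0.047), or by 0.55 without control 2 (adjusted p = 0.019). Its probe set has a mean near the lowest mean tested (114 on the linear scale), the other probe set lies below that level, and the adjusted p was 0.068 to 0.17 without each array other than control 2. Its mean log2 intensity was 6.69 in YY1aKO and 7.42 in controls, so it reached the filter through the controls. The call was lost with no filter (adjusted p = 0.067) and with other normalizations (adjusted p = 0.054 after quantile normalization again and 0.051 with the same median on every array). Other subunits of the complex read far higher on the same arrays, such as Cox6a1 (16050 to 20528) and Cox7a2 (8733 to 11831). Whether this probe set reports the main transcript of Cox7c was not tested.

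The promoter windows of the 3 genes of complex IV that passed and are listed in the RefSeq table are shown. They are the regions next to the starts of genes called in opposite directions. They run from 200 bases before to 30 bases after the annotated start (build GRCm38.p6, RefSeq, 5′ to 3′ on the gene's strand). Capitals mark matches to 3 motifs searched on both strands, AANATGGC or GCCATNTT (YY1), GCGCA and GCGC with 1 free base between them, or its reverse complement (NRF1), and CCGGAAG or CTTCCGG (GABPA, an ETS factor), where NRF1 and GABPA are activators known for respiratory genes. No matches to different motifs overlapped in the members' promoters. Cox5a (higher) lies at chr9:57521032-57521261 on the plus strand, Cox7c (lower) at chr13:86046766-86046995 on the minus strand and Cox8a (lower) at chr19:7217587-7217816 on the minus strand.
Cox5a: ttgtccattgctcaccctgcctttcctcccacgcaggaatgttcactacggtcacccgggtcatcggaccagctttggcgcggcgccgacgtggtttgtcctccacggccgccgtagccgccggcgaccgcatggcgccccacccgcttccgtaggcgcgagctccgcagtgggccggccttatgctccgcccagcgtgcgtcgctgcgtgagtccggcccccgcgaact
Cox7c: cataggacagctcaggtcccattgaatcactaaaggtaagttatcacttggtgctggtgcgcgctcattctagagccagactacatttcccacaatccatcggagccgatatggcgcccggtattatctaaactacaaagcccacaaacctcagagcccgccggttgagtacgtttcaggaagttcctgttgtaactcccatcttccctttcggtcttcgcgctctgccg
Cox8a: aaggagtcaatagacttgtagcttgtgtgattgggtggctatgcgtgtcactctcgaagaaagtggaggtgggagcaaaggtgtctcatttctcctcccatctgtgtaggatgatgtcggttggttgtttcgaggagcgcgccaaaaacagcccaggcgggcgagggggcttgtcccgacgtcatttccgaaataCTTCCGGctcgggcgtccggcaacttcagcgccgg

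Cox8a held a CTTCCGG match from -5 to 2 relative to its start and a further GABPA match past the window shown (33 to 39), and the windows of Cox5a and Cox7c held no match to these letters. RefSeq's table had 37 promoters of 300 bases for 34 of the 46 genes. The YY1 motif was in 4 of the 37 (10.8%, against 6.05% of all 32851 promoters), the NRF1 motif in 10 (27.0%, against 4.6%) and the GABPA motif in 14 (37.8%, against 8.86%). A match in a sequence does not show binding.

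Cox6a2 is the form of subunit 6a found in heart and skeletal muscle, and it is also known from brown fat. It read 176.5, 135 and 199.9 in YY1aKO, against 90.0, 88.5 and 104.5 in controls, with no overlap, and rose by 0.84 ± 0.17 (1.79-fold, adjusted p = 0.024), or by 0.80 without control 2 (adjusted p = 0.016). Without each other array its adjusted p was 0.054 to 0.093. Its mean log2 intensity was 7.40 in YY1aKO and 6.55 in controls, so Cox6a2 reached the filter through the YY1aKO arrays, and its control readings may be background, which makes the fold uncertain. With no filter its adjusted p was 0.035. Its ubiquitous counterpart Cox6a1 read 20109, 19798 and 20528 in YY1aKO, against 19279, 16050 and 18112 in controls, a difference of 0.18 ± 0.10 that did not pass (adjusted p = 0.25), or 0.11 without control 2.

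Markers of muscle and of brown fat moved with Cox6a2 in part. The 12 skeletal muscle markers summed to 1722 to 2446 in YY1aKO and 460 to 556 in controls. The largest part of the sum in YY1aKO was Acta1, skeletal muscle actin, which read 1945, 1107 and 1942 in YY1aKO, against 178, 110 and 171 in controls. With no filter, 2 of the 12 passed as higher and 0 as lower, where 6.85% of all genes passed as higher and 3.99% as lower. The muscle creatine kinase Ckm read 62.5 to 72.6 in YY1aKO and 60.3 to 68.5 in controls. The 6 brown or beige adipocyte markers summed to 1454, 1563 and 2817 in YY1aKO and 1327, 429 and 1074 in controls. With no filter 3 of the 6 passed as higher and 0 as lower. Of these markers, Ucp1 read 118, 67.6 and 306 in YY1aKO, against 24.7, 23.8 and 25.5 in controls, and Cox7a1, the heart and muscle form of subunit 7a, read 204, 258 and 246 in YY1aKO, against 112, 92.5 and 139.5 in controls. Cox8b, the heart and muscle form of subunit 8, read 490, 448 and 1071 in YY1aKO, against 942, 206 and 767 in controls, and its groups overlapped (0.22 ± 0.66 with all arrays and -0.46 without control 2, adjusted p = 0.84 and 0.35). Dio2, which activates thyroid hormone, read 28.4 to 35.5 in YY1aKO and 22.2 to 27.0 in controls. The part of these cell types in the result for Cox6a2 was not tested. In bulk tissue, fewer cells of a type and less RNA per cell cannot be told apart.

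The remaining subunits of complex IV differed less. Cox6b1, which faces the intermembrane space, read 12208, 12351 and 12746 in YY1aKO, against 10649, 8855 and 9904 in controls. Cox7a2, the ubiquitous form of subunit 7a, read 10218, 11330 and 11831 in YY1aKO, against 9176, 8762 and 8733 in controls. In both genes all YY1aKO arrays lay above all controls, with differences of 0.35 ± 0.10 and 0.32 ± 0.10 that missed the threshold (adjusted p = 0.063 and 0.065). Both passed without control 2, at 0.28 and 0.31 (adjusted p = 0.033 and 0.039). Cox4i1, the main form of subunit 4, read 12128, 12069 and 12493 in YY1aKO, against 11742, 9933 and 10812 in controls, and although its groups did not overlap its difference of 0.18 ± 0.10 did not pass (adjusted p = 0.24), nor did the 0.12 without control 2. Cox5b (0.17) and Cox6c (-0.10) passed in neither fit, nor did the assembly factor Surf1, which read 2036, 2089 and 2367 in YY1aKO, against 1953, 1554 and 1754 in controls (0.31 ± 0.12, adjusted p = 0.13).

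Cox7a2l, a factor tied to supercomplexes of complexes III and IV, depended on control 2 for the size of its difference. It read 2141, 2084 and 2089 in YY1aKO, against 2399, 4969 and 2705 in controls. The groups did not overlap, but control 2 lay 0.96 log2 units above the mean of the other controls. The difference was -0.60 ± 0.28 with all arrays (adjusted p = 0.18), and without control 2 it fell by 0.28 (adjusted p = 0.043).

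Tissue-restricted isoforms gave low readings. Cox8c and Cox6b2, known from testis, read 167 to 188 and 63.3 to 68.0 in YY1aKO, against 156 to 215 and 68.9 to 117 in controls. Male germ cell markers (8 of 8 measured) summed to 234 to 249 in YY1aKO, but to 219, 1753 and 1176 in controls 1 to 3. In controls 1 to 3 Cox8c read 156, 215 and 213, and Cox6b2 81.0, 68.9 and 117, and the part of those cells in these readings was not tested. Cox4i2, an isoform induced by low oxygen in lung, read 49.7 to 64.5 in YY1aKO and 43.1 to 53.1 in controls. Cox8c differed by -0.10 ± 0.15 (adjusted p = 0.67), or by -0.02 without control 2. Cox6b2 and Cox4i2 lay below the intensity filter and did not pass in the fit with no filter (-0.41 and 0.26, adjusted p = 0.26 and 0.28), where 10.8% of all genes passed. Detection calls were not used here, so these readings may be background.

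**Figure D3:**
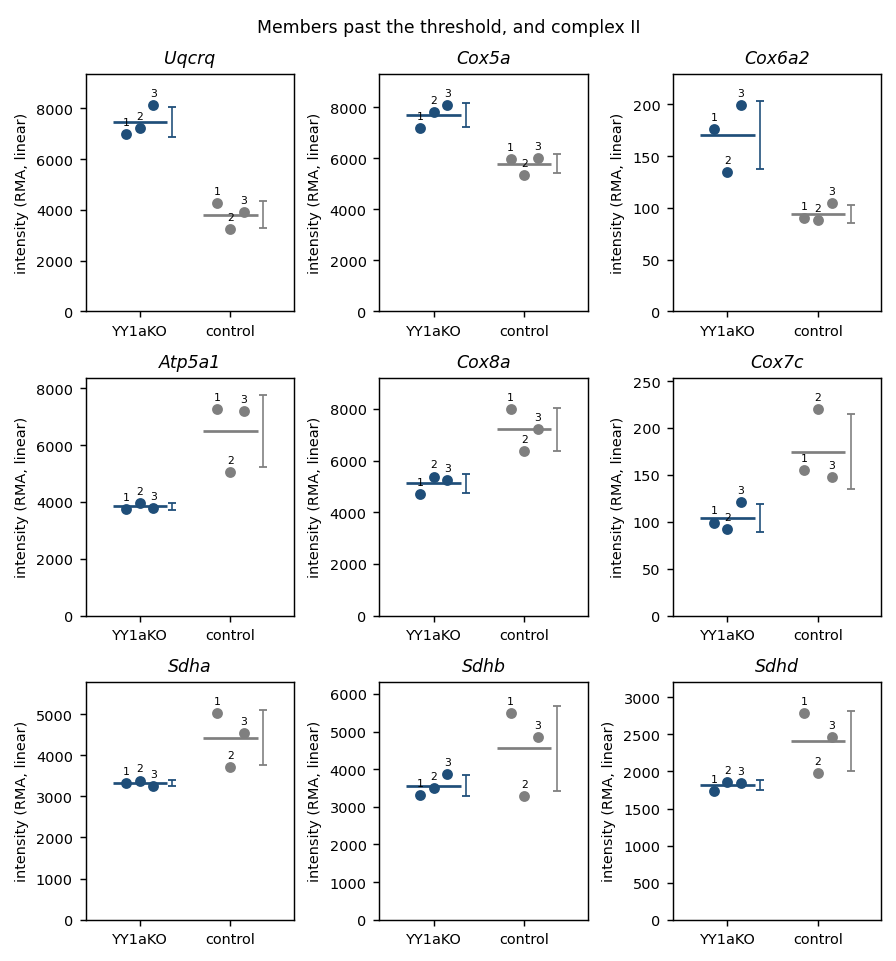
Intensity (RMA, linear scale) of the 6 genes that passed with all arrays and of 3 complex II genes on each array, numbered by replicate, with the mean (line) and SD (bar) of 3 arrays per group. In the panels of Uqcrq, Cox5a, Cox6a2, Atp5a1, Cox8a, Cox7c and Sdha and for Sdhd the groups do not overlap, and for Sdhb control 2 (3296) lies below all YY1aKO arrays.

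Complex V had 1 of 17 genes past the threshold with all arrays, where 20.7% of all genes tested passed. Without control 2 it had 2 higher and 4 lower, against 25.5% higher and 19.6% lower over all genes. The catalytic head of complex V, F1, is a ring of alternating alpha and beta subunits around a central gamma shaft. Atp5a1, the alpha subunit, read 3759, 3973 and 3796 in YY1aKO, against 7253, 5051 and 7185 in controls. All YY1aKO arrays lay below all controls, and Atp5a1 fell by 0.74 ± 0.16 (1.67-fold lower, adjusted p = 0.030), or by 0.91 without control 2 (1.88-fold lower, adjusted p = 0.0011). A further bright probe set gave -0.82 and a dim one -0.41. The adjusted p was 0.063 to 0.12 without each array other than control 2.

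The beta subunit Atp5b, which binds the nucleotide at the catalytic sites, read 7398, 8032 and 7800 in YY1aKO, against 11129, 7000 and 10043 in controls. The gamma subunit Atp5c1 read 6565, 7134 and 7267 in YY1aKO, against 8806, 7189 and 8338 in controls. Control 2 lay below or within the YY1aKO range in both, and neither passed with all arrays (-0.25 ± 0.19 and -0.21 ± 0.11, adjusted p = 0.37 and 0.23). Without control 2, Atp5b fell by 0.45 (adjusted p = 0.010) and Atp5c1 by 0.30 (adjusted p = 0.034). Atp5e, the epsilon subunit, read 2922, 3241 and 3241 in YY1aKO, against 3640, 3672 and 3786 in controls. Its groups did not overlap, and its difference of -0.24 ± 0.09 passed neither with all arrays nor without control 2 (adjusted p = 0.11 and 0.061). Atp5d, the delta subunit, read 5655, 5707 and 6489 in YY1aKO, against 6280, 5172 and 5917 in controls. Its groups overlapped, and it differed by 0.04 with all arrays and by -0.04 without control 2.

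The c ring in the membrane turns as protons pass. Its subunit is encoded by 3 genes, Atp5g1, Atp5g2 and Atp5g3, whose mature proteins are the same in mammals and whose targeting sequences differ. Their readings went different ways. Atp5g3 read 14911, 15721 and 15335 in YY1aKO, against 13137, 10022 and 11747 in controls, all YY1aKO arrays above all controls (0.41 ± 0.12, adjusted p = 0.068, and a rise of 0.30 without control 2, adjusted p = 0.032). Atp5g2 read 1955, 2264 and 2427 in YY1aKO, against 2812, 3129 and 2880 in controls, all below (-0.41 ± 0.12, adjusted p = 0.055, and a value that fell by 0.37 without control 2, adjusted p = 0.039). Atp5g1 read 1066, 1173 and 1178 in YY1aKO, against 1273, 3570 and 1382 in controls, also all below. For Atp5g1 control 2 lay 1.43 log2 units above the mean of the other controls, and the difference was -0.70 ± 0.40 with all arrays and -0.22 without control 2 (adjusted p = 0.26 and 0.089).

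**Figure D4:**
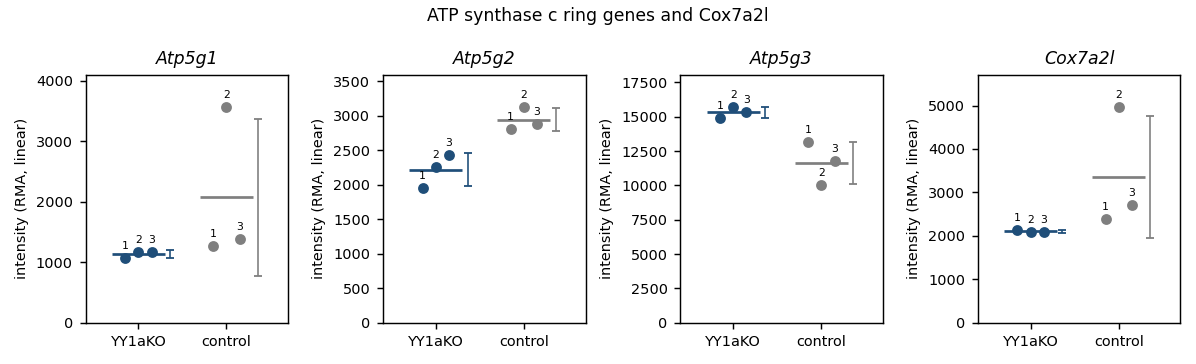
Intensity (RMA, linear scale) of the 3 c ring genes and of Cox7a2l on each array, numbered by replicate, with the mean (line) and SD (bar) of 3 arrays per group. All YY1aKO arrays lie below all controls for Atp5g1, Atp5g2 and Cox7a2l and above them for Atp5g3, and control 2 is far above the other controls for Atp5g1 (3570) and Cox7a2l (4969).

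The peripheral stalk holds F1 still against the ring. None of its 4 genes passed in either fit, where 20.7% of all genes tested passed with all arrays and 45.1% without control 2. Atp5pb (0.17), Atp5h (0.11), Atp5j (0.18) and Atp5o (-0.07) had 95% intervals within -0.41 and 0.51 with all arrays. Small membrane subunits hold ATP synthase dimers together. Of these, Atp5mpl read 4887, 6099 and 6079 in YY1aKO, against 3666, 4700 and 3923 in controls. Its groups did not overlap, and the difference of 0.47 ± 0.15 did not pass (adjusted p = 0.071), while without control 2 Atp5mpl rose by 0.58 (adjusted p = 0.013). Atp5md read 2651, 2647 and 2908 in YY1aKO, against 2412, 2420 and 2306 in controls (0.20 ± 0.09, adjusted p = 0.16, and 0.21 without control 2, adjusted p = 0.085). Atp5k read 5815, 6307 and 6306 in YY1aKO, against 6547, 5120 and 6001 in controls, with overlap, and differed by 0.07 with all arrays and -0.03 without control 2. Atp5j2 (-0.02) and Atp5l (0.15) did not pass either.

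The genes of complex V held all 4 of the members' matches to the YY1 motif, and 3 of the matches are shown in stretches of 100 bases with capitals as above. Atp5pb lies at chr3:105959234-105959333 (minus strand), Atp5b at chr10:128083237-128083336 (plus strand) and Atp5j at chr16:84835025-84835124 (minus strand), all in GRCm38.p6 from RefSeq.
Atp5pb: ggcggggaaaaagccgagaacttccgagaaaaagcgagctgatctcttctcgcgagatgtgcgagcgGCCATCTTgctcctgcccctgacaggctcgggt
Atp5b: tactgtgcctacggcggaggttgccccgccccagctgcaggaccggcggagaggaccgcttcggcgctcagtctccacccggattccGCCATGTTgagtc
Atp5j: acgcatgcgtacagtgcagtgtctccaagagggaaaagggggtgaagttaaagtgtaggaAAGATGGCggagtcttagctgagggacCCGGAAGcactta

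The match spans the start in Atp5pb (-3 to 5), follows it in Atp5b (18 to 25) and precedes it in Atp5j (-88 to -81). The remaining match was in Atp5j2 (24 to 31). None of these 4 genes passed with all arrays, where 20.7% of all genes tested did. Of the 4, only Atp5b passed without control 2, where 45.1% of all genes did.

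A further grouping by role was chosen after the values were seen. Complex II, the catalytic and core subunits of complex III and F1 hold 13 genes. With all arrays 1 of the 13 passed (Atp5a1, lower, where 20.7% of all genes passed and 7.8% as lower) and the median was -0.25. Without control 2, 8 of the 13 passed, all lower (61.5%, where 45.1% of all genes passed and 19.6% as lower). The median was then -0.45, and 12 of the 13 differences were negative. The other 31 tested members had 3 higher and 2 lower with all arrays (median 0.17), and 7 higher and 4 lower without control 2 (median 0.11). The difference between these groups of genes was not tested.

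Assembly factors and other helpers of complexes II to V, were taken from a separate list, since the symbols above do not take them. Of 42 listed, 29 were measured and all were tested, with 6 higher and 0 lower by limma (20.7%, the same share as over all genes, of which 12.9% were higher and 7.8% lower). At an unadjusted p under 0.05 there were 12 of the 29, against 2772 of the 7436 genes tested. Without control 2 there were 10 higher and 2 lower (41.4%, against 45.1% of all genes, 25.5% higher and 19.6% lower). Cmc2, a small protein that assists complex IV, read 1042, 1121 and 1102 in YY1aKO, against 684, 525 and 757.5 in controls. The groups did not overlap, and Cmc2 rose by 0.75 ± 0.15 (adjusted p = 0.025), or by 0.59 without control 2 (adjusted p = 0.0041). Ttc19 (0.66) and Bcs1l (0.54), which act late in the assembly of complex III around the Rieske protein, rose as well (adjusted p = 0.024 and 0.031). Cox18 (0.66), which inserts a mitochondrial-encoded subunit into the membrane, the copper chaperone Cox17 (0.30) and the complex II factor Sdhaf4 (0.36) completed the 6 (adjusted p = 0.042, 0.049 and 0.035). All 6 also passed as higher without control 2. Without control 3 or without any 1 YY1aKO array 0 of the 29 passed by limma. In those fits 5.3% (without control 3) and 3.4%, 0.444% and 0.323% (without YY1aKO 1, 2 and 3) of all genes passed. Of the 29, 8 to 10 had an unadjusted p under 0.05 there, and the same share over all genes was not counted.

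Beside these genes, the 39 with a symbol that begins with Nduf, most of them of complex I, had 6 higher and 4 lower, with a median of 0.18. The mitochondrial ribosome (74 Mrpl and Mrps genes) had 34 higher and 4 lower, with a median of 0.41. Over all genes 12.9% were higher and 7.8% lower. Without control 2 these counts were 12 and 9 for the Nduf genes and 40 and 7 for the ribosome, where 25.5% of all genes were higher and 19.6% lower. Ndufa4, which is now placed with complex IV, is both among the 39 and on the list of helpers, and it did not pass (0.10, adjusted p = 0.63). Whether the members of complexes II to V differ from these groups was not tested.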

How the data were processed

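RNA from 3 YY1aKO and 3 control samples was hybridised to 1-colour Affymetrix arrays. The authors deposited an intensity for each probe set on each array. Per the submitters' processing notes it came from RMA; the version, the settings and the genome build are not given in the sources used here. The deposited intensities run from 6.09 to 30322 on a linear scale, although RMA gives log2 values, and array medians lie between 134.92 and 140.5. RMA makes the arrays' distributions alike, so a change shared by most genes is removed. The number of arrays limits precision, and so does the spread that control 2 adds (median SD over the tested members 0.168 over 3 controls and 0.076 over controls 1 and 3).

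Of 22690 probe sets, 64 controls were left out, 20380 had 1 gene symbol, 691 several and 1555 none. Each of 12393 genes was represented by its brightest probe set. The brightest 60% of them (7436, mean log2 of at least 6.83) were tested on log2 intensity with limma 3.58.1 in R 4.3.3 (lmFit, eBayes, two-sided, Benjamini-Hochberg over all genes tested, threshold 0.05). Differences are YY1aKO minus control, ± is the SE of the fit, and intervals are at 95%. Members below the filter have the adjusted p of a fit with no filter.

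Members, lists and tests were chosen with earlier results of these data known. Values on every array are given for members that passed, for the brightest of each complex, for the largest differences that did not pass, for isoform pairs and for members whose sign turned without control 2; further members were added after their values were seen. The members matched RefSeq promoters by symbol. Leaving out arrays, other filters, other normalizations and other choices of probe set were tried.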

Additional observations from a re-analysis of the deposited data

How the results depend on the processing

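The counts of members higher and lower (3 and 3 with all arrays) depended on single arrays. Leaving out 1 array at a time gave 0 to 7 higher, 0 to 12 lower and 25 to 34 outside the control range. The highest of each came without control 2, where 45.1% of all genes passed and 69.2% lay outside the control range. The share of all genes outside was not counted with any other array left out. Medians were -0.02 to 0.12. Without control 1 there were 2 higher and 0 lower, and without control 3 there were 1 and 0. Without YY1aKO 1, 2 or 3, limma called 0 members, where 13, 8 and 7 had an unadjusted p under 0.05. Of all genes, 18.0%, 5.3%, 3.4%, 0.444% and 0.323% passed an adjusted p of 0.05 in these 5 fits. The share of all genes with an unadjusted p under 0.05 was not counted in them. With all arrays, 17 of the 44 tested members and 2772 of the 7436 genes tested had an unadjusted p under 0.05 by limma. The assembly factors gave 0 to 10 higher and 0 to 2 lower. Control 2 was also left out together with a further array, chosen after seeing the data. This gave 5 higher and 7 lower without YY1aKO 1, 3 and 7 without YY1aKO 2, and 3 and 9 without YY1aKO 3. Of all genes tested, 36.9%, 32.8% and 33.0% passed in these fits. Leaving out control 2 with control 1 or control 3 left 1 control array, which is assumed to vary as the YY1aKO arrays do. For 39 and 38 members respectively, all YY1aKO arrays lay on 1 side of that single value. The share of all genes on 1 side was not counted there, so these counts do not set the members apart. With the mean of probe sets, no filter or the same median on every array, 1 member was lower, and 3, 2 and 4 were higher. Of all genes tested, 19.4%, 10.8% and 21.5% passed in these settings. The replicate block gave 0 members higher, 0 lower and 0 assembly factors higher by limma, where 0.726% of all genes passed. At an unadjusted p under 0.05 there were 9 members and 9 assembly factors, and the same share over all genes was not counted. Same-numbered arrays had correlations of deviations from their group means of -0.144, -0.125 and -0.122, and other pairs of arrays 0.028 to 0.124. Whether the numbers pair the samples cannot be decided from these values, since deviations from a mean of 3 arrays depend on each other.

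Members that turned sign passed in no such setting. Atp5j2 had 0.038 with the mean of probe sets, 0.095 without _s_at and _x_at probe sets, 0.02 with the same median, and -0.063 to 0.03 with 1 array left out. The range with 1 array left out was -0.136 to 0.255 for Cyc1, -0.241 to 0.003 for Uqcrc2, -0.038 to 0.102 for Atp5d, -0.188 to 0.018 for Atp5o and -0.03 to 0.147 for Atp5k. The causes were not tested. Without _s_at and _x_at probe sets, Uqcrq and Cox7c had no probe set over the filter.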
